A study of Mus musculus with 12 samples.

Results

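B2 elements are a family of mouse short interspersed elements (SINEs), and the reads described here lie on single genomic copies of 3 of its subfamilies, B2_Mm1a, B2_Mm1t and B2_Mm2. Members were all repeat copies classed as SINE whose name starts with B2_ and that carried at least 1 read with a PASS poly(A) tail call and an assigned barcode. They numbered 2299 of 47502 nuclear contigs with such a read, and 2299 of 5946 SINE copies. B2_Mm1a had 694 copies, B2_Mm1t 505 and B2_Mm2 1100, and together they held 3670 reads.

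The reads came from direct RNA sequencing of P19 cells, a wild-type mouse embryonal carcinoma line, before differentiation (D0) and at day 2 (D2), day 4 (D4) and day 6 (D6) in NDiff 227 medium with 500 nM retinoic acid. D0 cells were kept in serum medium without the agent. Each day had 3 biological replicates, and oligo(dT)-selected RNA of each was sequenced natively on nanopores. All 3 replicates of a day shared their sequencing runs and no run held 2 days, so run and day cannot be told apart. In the table, the run names of the D0 reads call the cells undifferentiated but also carry D2, and those of some D6 reads give no day. The days used here are those of the labels and of the table's sample column.

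Libraries held 121480 to 620088 nuclear PASS reads, with the D2 libraries the shallowest, and 99 to 562 reads on B2 copies. At D0 the summed undifferentiated markers lay at 1925 to 2072 RPM (reads per 1000000 nuclear PASS reads) and at D6 at 197 to 251, with Dppa5a and Zfp42 at 0 throughout. The 7 neuronal markers lay at 479 to 517 at D0 and 2836 to 3221 at D6, and glial markers summed to at most 3.64. Levels are those of bulk cultures, in which fewer cells of a type and less RNA per cell cannot be told apart.

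B2 copies derive from a tRNA gene. They carry the internal A and B boxes of an RNA polymerase III promoter inside their own first part, so a copy can be transcribed on its own from its first base. Their 3′ part carries AATAAA, the signal that directs cleavage and polyadenylation of mRNAs, followed by an A-rich tail. A copy that lies in the sense direction inside a gene of RNA polymerase II can therefore also be read as part of a longer transcript, and can end it. B2 RNA is known to be abundant in embryonic and embryonal carcinoma cells.

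The sequences of 3 copies are given to show AATAAA and the A-rich end. They lie in exons of noncoding RNAs, so that their sequence could be read from the GENCODE vM21 transcripts (mm10, GRCm38). All are written 5′ to 3′ on the strand of the transcript, with AATAAA and the word GTTCAA in capitals.
B2_Mm1a_dup4679, chr5:23854750-23854939, plus strand, exon of 2700038G22Rik: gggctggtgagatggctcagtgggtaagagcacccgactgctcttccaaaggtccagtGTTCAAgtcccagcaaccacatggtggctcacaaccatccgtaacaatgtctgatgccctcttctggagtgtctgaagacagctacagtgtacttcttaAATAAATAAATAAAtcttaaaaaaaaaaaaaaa
B2_Mm2_dup82738, chr17:33761678-33761867, plus strand, exon of Gm17251: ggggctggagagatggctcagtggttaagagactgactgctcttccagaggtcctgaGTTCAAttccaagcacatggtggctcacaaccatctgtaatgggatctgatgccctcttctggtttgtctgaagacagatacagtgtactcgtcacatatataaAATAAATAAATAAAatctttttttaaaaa
B2_Mm2_dup82353, chr17:29446919-29447110, minus strand, exon of Gm26885: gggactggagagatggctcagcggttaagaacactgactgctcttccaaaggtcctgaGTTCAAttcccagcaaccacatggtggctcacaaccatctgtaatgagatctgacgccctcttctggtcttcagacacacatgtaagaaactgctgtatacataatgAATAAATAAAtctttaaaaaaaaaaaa

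In the Gm17251 and Gm26885 copies, AATAAA sits close to the 3′ end of the annotated transcript, which follows the copy by 3 and 0 bases. Of the 53 copies that lay whole inside 1 exon with a sequence, 46 held AATAAA on the B2 strand, 86.8%, against 10 of 51 windows of the same length just upstream in the same transcripts, 19.6%. GGTTCGA, with which the B box word chosen for the search begins, was held by 0 of 53 copies on either strand. GTTCAA was held on the B2 strand by 40 of 53 copies, and by 3 of the 51 upstream windows. Whether GTTCAA marks a working B box was not tested. TTTT, the word at which RNA polymerase III stops, was held on that strand by 20 of 53 copies, and by 33 of 51 windows. The strand of each copy was read from GTTCAA and GGCTCA, so their presence on it was partly set by that choice. In 38 of the 53, copy and transcript shared the strand. All 17 copies within 20 bases of a transcript's end did so, as did 21 of the 36 copies farther from it.

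The first comparison asked whether B2 transcripts accumulated differently as the cells differentiated. Reads of B2_Mm1a fell at every day after D0, those of B2_Mm1t fell at D4, and those of B2_Mm2 did not pass the test on any day. B2_Mm1a lay at 322, 332 and 359 RPM at D0. It lay at 272, 205 and 231 at D2, at 185, 132 and 148 at D4, and at 182, 198 and 191 at D6. The D0 replicates lay above all 9 others.

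The fitted log2 fold change of B2_Mm1a was -0.71 ± 0.17 (SE) at D2, -1.26 ± 0.15 at D4 and -1.04 ± 0.15 at D6, with limma-voom adjusted p of 0.0037, 1.07e-08 and 2.35e-07 over 12510 features. Of all features, 7.18% were called at D2, 20.2% at D4 and 29.6% at D6. The D2 call was lost without D2 replicate 2 (adjusted p = 0.0805) and in libraries thinned to the smallest (-0.66, adjusted p = 0.0803). It was also lost with reads of mapping quality of at least 10, where the change was -0.39 (adjusted p = 0.513), against -0.79 and -0.77 at D4 and D6 (adjusted p = 0.0263 and 0.0282).

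B2_Mm1t lay at 222, 192 and 261 RPM at D0 and at 141, 157 and 183 at D4, with no overlap. At D6 it lay at 208, 216 and 220, inside the D0 range. The log2 fold change was -0.54 ± 0.16 at D4 (limma-voom adjusted p = 0.0112), -0.42 ± 0.19 at D2 (adjusted p = 0.191) and -0.27 ± 0.15 at D6 (adjusted p = 0.184). The D4 call ended without D0 replicate 3 (adjusted p = 0.0819) and with a mapping quality of at least 10 (-0.06, adjusted p = 0.876). That minimum turned the D2 and D6 values to 0.06 and 0.40.

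B2_Mm2, the subfamily with most reads, lay at 418, 324 and 452 RPM before differentiation. It lay at 338, 407 and 381 on D2, 361, 348 and 387 on D4, and 448, 548 and 461 on D6. Each later day overlapped D0. Its log2 fold changes were -0.19 ± 0.15, -0.19 ± 0.13 and 0.10 ± 0.13, with limma-voom adjusted p of 0.532, 0.333 and 0.601. Scaling by the library total, which raised the median of all features by 0.25 at D6, gave 0.35 at D6 (limma-voom adjusted p = 0.0222).

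The ratio of subfamilies within a library does not depend on scaling. The log2 ratio of B2_Mm1a to B2_Mm2 reads was -0.23 ± 0.23 (SD, n = 3) in undifferentiated cells, then -0.67 ± 0.34 (D2), -1.25 ± 0.25 (D4) and -1.35 ± 0.11 (D6). The D4 and D6 replicates did not overlap those of D0 (exact permutation p = 0.1 for each, the smallest that 3 against 3 allows, two-sided, 0.188 after Benjamini-Hochberg adjustment over 30 tests of this kind). With a mapping quality of at least 10 the difference from D0 was -0.44 at D4 (exact permutation p = 0.3) and -0.94 at D6 (p = 0.1), against -1.03 and -1.12. The ratio of B2_Mm1t to B2_Mm2 moved less, from -0.82 ± 0.08 at D0 to -1.19 ± 0.14 at D4 and -1.17 ± 0.15 at D6 (exact permutation p = 0.1 for each). With a mapping quality of at least 10 it was higher than at D0 on every later day, by 0.21 to 0.33. Over alignments of all quality tags it differed from D0 by -0.38 at D2, -0.72 at D4 and -0.75 at D6.

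Over the 3 subfamilies together, B2 reads lay at 961 ± 112 RPM (SD, n = 3) before differentiation, and at 797 ± 25.5, 681 ± 40.95 and 890 ± 64.2 on the 3 later days. D2 and D4 did not overlap D0 (exact permutation p = 0.1 for each), and D6 did (p = 0.4, exact). No day was separated with a mapping quality of at least 10, with log2 differences from D0 of -0.057, -0.22 and 0.24 (exact permutation p = 0.9, 0.4 and 0.5). B1, the other large SINE family of the mouse, lay at 228 ± 36.1 at D0 and 340 ± 25.9 at D6, and the log2 ratio of B2 to B1 reads was 2.08 ± 0.10 and 1.39 ± 0.07 on those days, without overlap (exact permutation p = 0.1). That difference of -0.69 was -0.33 with a mapping quality of at least 10 and -1.29 over alignments of all quality tags (exact permutation p = 0.1 for each).

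**Figure D1:**
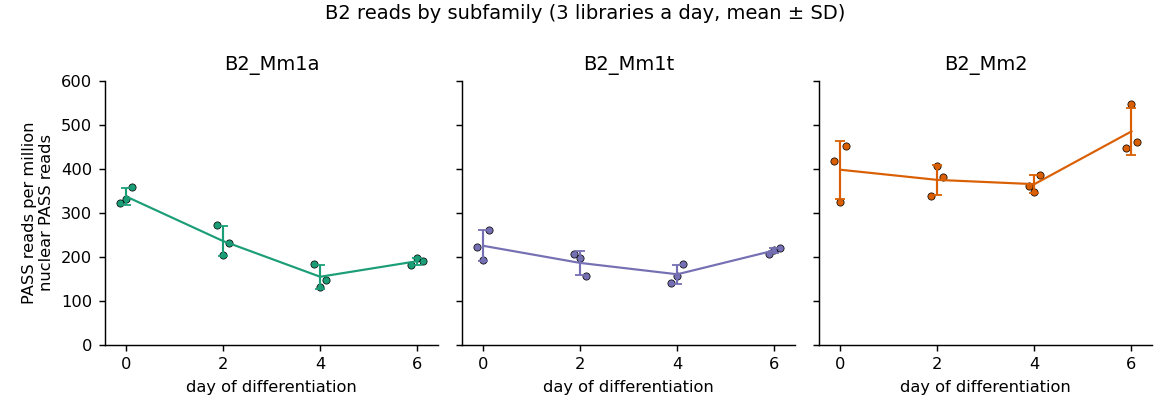
Level in RPM (y axis) of each B2 subfamily against the day of differentiation (x axis). Points are libraries and bars are the mean and SD of 3; B2_Mm1a falls from 337 ± 19.05 at D0 to 190 ± 7.93 at D6, while B2_Mm2 stands at 398 ± 66.3 and 485 ± 54.2.

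Reads on B2 copies fell into 2 kinds by where on the copy their alignment began. In 1716 reads on 874 copies it began within the first bases of the copy (0 to 2 bases left unaligned, edge start). In 1640 reads on 1298 copies it began 8 to 20 bases inside it (inner start, median 13), and 314 reads began elsewhere. Reads of both kinds ran to the 3′ end of the copy, ending a median of 3 and 4 bases before it. As background, a nanopore read of native RNA misses the last bases at the 5′ end of its molecule, and a read that enters a repeat copy from upstream sequence is cut off at the copy's first base when it is aligned to the copy alone. Which molecules each kind holds was not tested, and the limits were set after the start positions had been seen.

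Inner starts were more frequent on B2 than on B1 copies. Of 1075 B1 reads, 8.09% had an inner start and 77.0% an edge start, against 44.7% and 46.8% of B2 reads. The inner share was higher in B2 in 12 of 12 libraries, by 35.2 percentage points on average (exact sign-flip p = 0.000488, two-sided, the smallest that 12 libraries allow). As the limits of the inner start were set after the start positions had been seen, this p-value is a description and no independent test. Among the subfamilies the mean over libraries was 60.6 ± 10.5% in B2_Mm1a, 43.4 ± 14.5% in B2_Mm1t and 32.2 ± 5.79% in B2_Mm2 (SD, n = 12). B2_Mm1a lay above B2_Mm2 in 12 of 12 libraries and above B2_Mm1t in 11 (exact sign-flip p = 0.000488 and 0.000977, adjusted 0.00146 for both). B2_Mm1t lay above B2_Mm2 in 8 of 12 libraries, by 11.2 ± 12.1 points (exact sign-flip p = 0.0112).

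**Figure D2:**
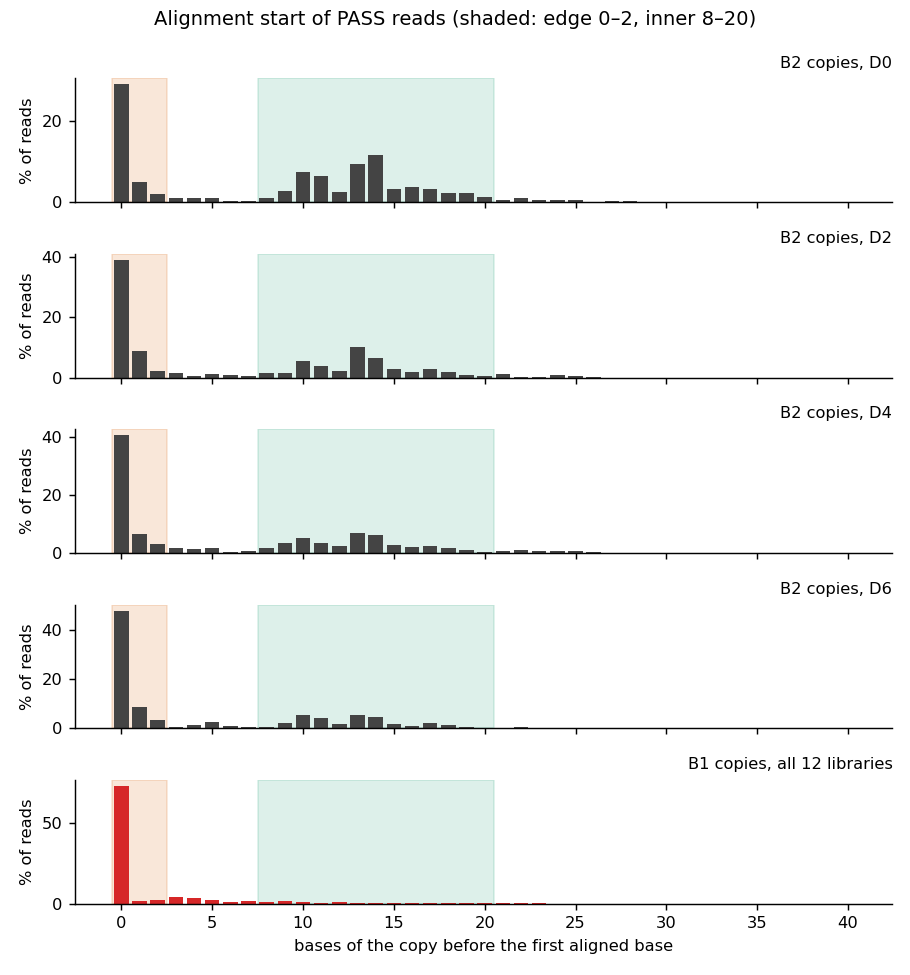
Share of PASS reads (y axis, percent) by the number of bases of the copy before the first aligned base (x axis, bases 0 to 40), for B2 copies on each day and for B1 copies over all 12 libraries. The inner starts between 8 and 20 bases hold 56.2% of the B2 reads at D0 and 31.2% at D6, and 8.09% of the B1 reads.

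The share of inner starts was lower in every differentiated library. It was 55.8%, 56.5% and 56.2% in the D0 replicates, 45.5%, 39.1% and 44.1% in those of D2, 46.9%, 36.8% and 38.6% in those of D4, and 34.3%, 28.9% and 32.0% in those of D6. All 9 later libraries lay below D0, and all D6 libraries below those of D2 and D4 (each day against D0 by exact permutation, p = 0.1). The differences of -13.3, -15.4 and -24.4 points shrank to -3.87, -6.25 and -15.1 among reads with a mapping quality of at least 10, and only D6 remained separate (exact permutation p = 0.3, 0.4 and 0.1). The B1 share was 7.47 ± 2.04% at D0 and 9.10 ± 1.84% at D6 (exact permutation p = 0.5). Without the 5 copies of at least 30 reads the B2 share was 59.8 ± 0.82% at D0 and 35.7 ± 3.94% at D6.

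In RPM, inner starts fell from 540 ± 61.9 (SD, n = 3) in undifferentiated cells to 342 ± 27.3 on D2, 278 ± 43.96 on D4 and 282 ± 5.20 on D6. Their log2 fold changes were -0.82 ± 0.15 (SE), -1.07 ± 0.13 and -1.15 ± 0.13, with limma-voom adjusted p of 9.28e-05, 1.12e-08 and 1.29e-09. Edge starts stood at 345 ± 42.0 at D0, 384 ± 59.6 at D2 and 335 ± 34.99 at D4, and at D6 they rose to 534 ± 49.2. The main fit, scaled by trimmed mean, gave a log2 fold change of 0.43 ± 0.13 at D6 (limma-voom adjusted p = 0.00713). Scaled by the library total, as RPM are, it was 0.67. The call of the main fit was lost in libraries thinned to the smallest (0.20, adjusted p = 0.485). At D2 and D4 the edge starts differed by 0.04 ± 0.15 and -0.11 ± 0.13 (limma-voom adjusted p = 0.917 and 0.623). In these fits 7.18%, 20.2% and 29.7% of features were called. With a mapping quality of at least 10 the inner fall was -0.33 (adjusted p = 0.419) at D2, -0.68 (0.0078) at D4 and -0.71 (0.00504) at D6. Inner starts had a median mapping quality of 3 and edge starts of 19, so single copies are less surely assigned for the former.

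Among inner starts, B2_Mm1a and B2_Mm1t had larger fitted changes at D4 and D6 than B2_Mm2. B2_Mm1a inner starts went from 240, 248 and 271 RPM at D0 to 98.3, 92.0 and 93.9 at D6, and B2_Mm1t inner starts from 137, 118 and 164 to 51.0, 69.0 and 79.3. Neither overlapped. Their log2 fold changes at D6 were -1.63 ± 0.18 and -1.25 ± 0.22 (limma-voom adjusted p = 6.59e-10 and 1.81e-05). With a mapping quality of at least 10 they were -1.04 and -0.65, of which only the first passed (limma-voom adjusted p = 0.0308 and 0.217). B2_Mm2 inner starts went from 161, 113 and 168 to 138, 117 and 106, which overlapped, with -0.49 ± 0.19 (adjusted p = 0.0449, limma-voom), a call lost at that mapping quality (-0.58, adjusted p = 0.0616). At D4 the values were -1.64 ± 0.19, -1.33 ± 0.23 and -0.28 ± 0.19, of which the last did not pass (adjusted p = 0.31). The B2_Mm1t call at D4 was lost with a mapping quality of at least 10 (-0.92, limma-voom adjusted p = 0.0932). The log2 ratio of B2_Mm1a to B2_Mm2 among inner starts, a direct comparison of that pair, was 0.80 ± 0.30 at D0 and -0.34 ± 0.16 at D6, without overlap (exact permutation p = 0.1).

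Edge starts rose at D6 in B2_Mm1t, by 0.72 ± 0.22, and in B2_Mm2, by 0.46 ± 0.15 (limma-voom adjusted p = 0.011 and 0.0144), while B2_Mm1a edge starts stood at -0.06 ± 0.22 (adjusted p = 0.868). Much of the B2_Mm1t rise lay on 1 copy, B2_Mm1t_dup4392. With it, B2_Mm1t edge starts stood at 68.7 ± 11.8 RPM at D0 and 132.6 ± 8.27 at D6, and without it at 52.97 ± 10.7 and 82.4 ± 4.37, where the log2 fold change of 0.42 did not pass (limma-voom adjusted p = 0.205). The B2_Mm2 call was lost with a mapping quality of at least 10 (0.43, limma-voom adjusted p = 0.0568). With the reads split by subfamily and start, 7.19%, 20.2% and 29.7% of 12516 features were called at D2, D4 and D6.

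**Figure D3:**
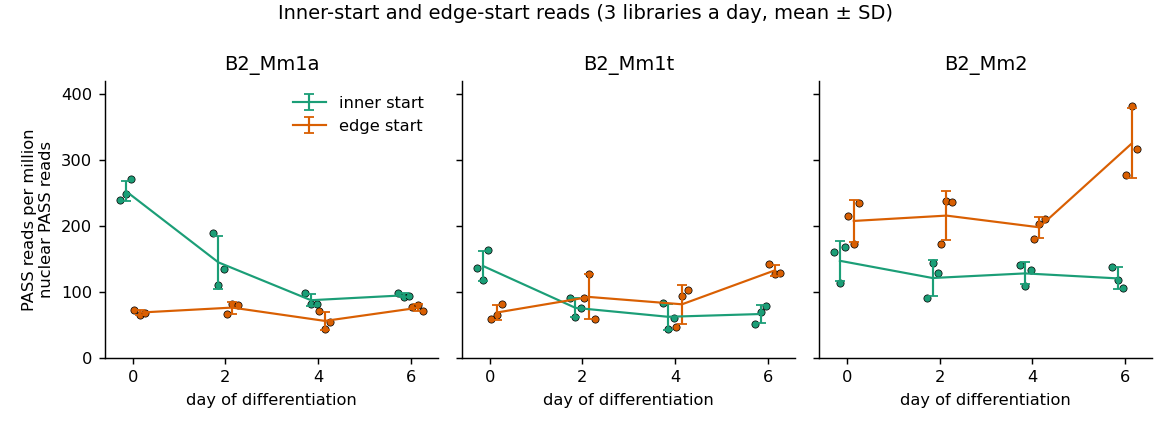
Level in RPM (y axis) of reads with an inner or an edge start against day (x axis) in each subfamily, with points for libraries and bars for the mean and SD of 3. Inner starts of B2_Mm1a stand at 253 ± 15.9 at D0 and 94.8 ± 3.22 at D6, and edge starts of B2_Mm2 at 208 ± 31.8 and 325 ± 53.1.

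Many B2 reads had no accepted tail call, and their starts differed between quality tags. Of 9592 B2 alignments of all quality tags, 38.3% were PASS, against 80.3% of alignments on nuclear transcripts. The tag READ_FAILED_LOAD, given where the tail program could not load the read's signal, held 34.0% of B2 alignments and 2.41% of those on transcripts, and 88.7% of these B2 alignments had an inner start. The tag SUFFCLIP went the other way. It held 14.5% of B2 alignments and 1.26% of those on transcripts, with 74.2% edge and 13.7% inner starts. ADAPTER, with 12.8% of B2 alignments, had 47.5% inner and 45.4% edge starts. The share of READ_FAILED_LOAD among B2 alignments was 42.9 ± 0.34% (SD, n = 3) at D0 and 22.6 ± 3.74% at D6. Counting every tag, inner starts stood at 1430 ± 163 reads per 1000000 alignments at D0 and 708 ± 99.5 at D6, and edge starts at 497 ± 42.2 and 931 ± 61.2. The levels on PASS reads thus leave out a larger part of the inner starts than of the edge starts.

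Inner and edge starts also differed in where the copies they were assigned to lay. By read, 49.1% of inner starts lay in introns, 14.9% within 5000 bases past a gene's 3′ end, 2.13% in exons and 33.8% in none of these places. The last class holds all remaining sequence between genes, also close to a gene's 5′ end. Of edge starts, 40.97% lay in introns, 31.9% past a 3′ end, 14.2% in exons and 12.9% in the remaining class. Within a library, the share of inner reads minus that of edge reads was -12.8 percentage points for exons and 20.3 for the remaining class. Both differences had 1 direction in 12 of 12 libraries (exact sign-flip p = 0.000488 each). For regions past a 3′ end it was -14.99, and negative in 11 of 12 libraries (exact sign-flip p = 0.000977). The median mapping quality was 3 for inner and 19 for edge starts, so the places of inner starts are less sure. Whether the differences in place hold with a mapping quality of at least 10 was not tested. Intronic copies made up 1177 of the 2299, exonic copies 94.

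The exonic reads were largely on genes that the alignment did not otherwise see. For 65 of the 94 exonic copies, holding 218 of 291 reads, no PASS read was assigned to any transcript of the gene. 2700038G22Rik was among them, and no PASS read of the table was assigned to a transcript of class lincRNA.

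Most copies were seen once. A single read was found on 1829 copies, 79.6% of all, 187 copies had at least 3 reads, 22 at least 10 and 5 at least 30, and the 10 leading copies held 12.3% of the reads. Of the 66 copies with at least 5 reads, 39 had edge starts in more than 80% of their reads, 13 had inner starts in more than 80%, and 14 had neither.

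The copy with most reads, B2_Mm1t_dup4392 (chr4:32802086-32802266), lies 527 bases past the end of Lyrm2. Lyrm2 encodes a small mitochondrial protein of the LYR family. It carried 7, 9 and 11 reads in the D0 replicates, 0, 9 and 2 at D2, 6, 26 and 20 at D4 and 17, 25 and 21 at D6, and 130 of its 153 reads were edge starts. At D0 this was 17.0 ± 3.50 RPM (SD, n = 3) and at D6 60.4 ± 2.46. It rose by 1.27 ± 0.37 (SE, log2) at D4 and 1.57 ± 0.36 at D6 (limma-voom adjusted p = 0.011 and 0.000522). The D4 call was lost without D4 replicate 2 and with a mapping quality of at least 10. Lyrm2 transcripts stood at 21.7 ± 2.26 RPM at D0 and 60.4 ± 26.6 at D6, and its most read transcript rose by 0.95 ± 0.34 (limma-voom adjusted p = 0.0295). Without this copy, B2_Mm1t fell by 0.91 on the log2 scale at D4 and by 0.62 at D6 (limma-voom adjusted p = 0.00305 at D6).

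This was the 1 copy called at D4 and at D6 of the 5 with at least 30 reads, where 20.3% and 29.7% of 12477 contigs were called. At D2 limma-voom called 0 of the 5, with 1 at an unadjusted p under 0.05 and 7.23% of contigs called. B2_Mm1t_dup15415 (chr11:76220644-76220846), in an intron of Glod4, had 79 reads, of them 76 edge starts, at 14.5 ± 8.52 RPM at D0 and 21.8 ± 1.23 at D6 (log2 0.67 ± 0.45, limma-voom adjusted p = 0.274). Leaving out 1 library at a time gave 0.011 to 1.09 for this copy.

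The copy in the noncoding RNA 2700038G22Rik stood at 7.49 ± 6.49 RPM at D0 and 8.45 ± 4.79 at D6, and B2_Mm1a_dup16796 (chr17:46667244-46667441), in an exon of Rrp36, a gene for ribosomal RNA processing, at 8.61 ± 4.50 and 6.37 ± 4.33. The latter copy also lies within the lincRNA gene Gm26904 on the other strand, and its reads had a median mapping quality of 3.5. Neither passed the test at D6.

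Inner starts led on 2 of the 10 leading copies. B2_Mm2_dup903 (chr1:38909230-38909425), 514 bases from the pseudogene Gm6621, had 24 reads, every one an inner start between bases 10 and 18. None was seen at D0, 0, 0 and 1 were seen at D2, 3, 1 and 6 at D4, and 4, 5 and 4 at D6. It is among the leading copies through its D4 and D6 reads alone, so these counts are a description and show no change of B2 copies. B2_Mm2_dup89012 (chr19:40273047-40273196), 1205 bases from Pdlim1, had 21 reads, all inner starts, 1, 2 and 3 at D0 and 2, 3 and 2 at D6. Both had fewer than 30 reads and were not tested.

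The other 11 copies led by inner starts had at most 9 reads each, and 8 of them had more reads at D0 than on any other day. Among the rest, B2_Mm2_dup84376 had 0 reads at D0 and then 1, 5 and 2, and B2_Mm1a_dup13296 had 2, 6, 1 and 0. Of those with most reads at D0, B2_Mm2_dup78396 (chr16:8787757-8787913) in an intron of Usp7 had 9 reads, all at D0. B2_Mm1a_dup202 (chr1:54887187-54887378) in an intron of Ankrd44 had 6, and B2_Mm1a_dup17691 (chr19:3771211-3771403) in an intron of Kmt5b had 5, again all at D0. The D0 libraries were also the deepest, with 453954 to 620088 nuclear PASS reads against 274648 to 434619 at D6. They held 857 of all 1640 inner-start reads. Copies seen at D0 alone reached 5 reads only through D0, so these counts are a description and show no change of B2 copies. The median mapping qualities of the 3 copies seen at D0 alone were 3, 1 and 0, so a near-identical copy elsewhere could be the source. These copies were picked after their values had been seen.

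Other leading copies were B2_Mm2_dup78457 in an intron of Tvp23a, with 22 reads, B2_Mm2_dup13821 in an intron of 1500004A13Rik, with 20, and B2_Mm2_dup39694, 585 bases from Rex1bd, with 19. The 1500004A13Rik copy had 4, 2 and 3 reads at D0 and 0, 0 and 1 at D6. The Tvp23a copy had 2, 1 and 3 at D0 and 0, 7 and 1 at D6, so that 1 library held most of its D6 reads. B2_Mm2_dup39694 had 2 in each D0 replicate and 1, 3 and 3 at D6.

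**Figure D4:**
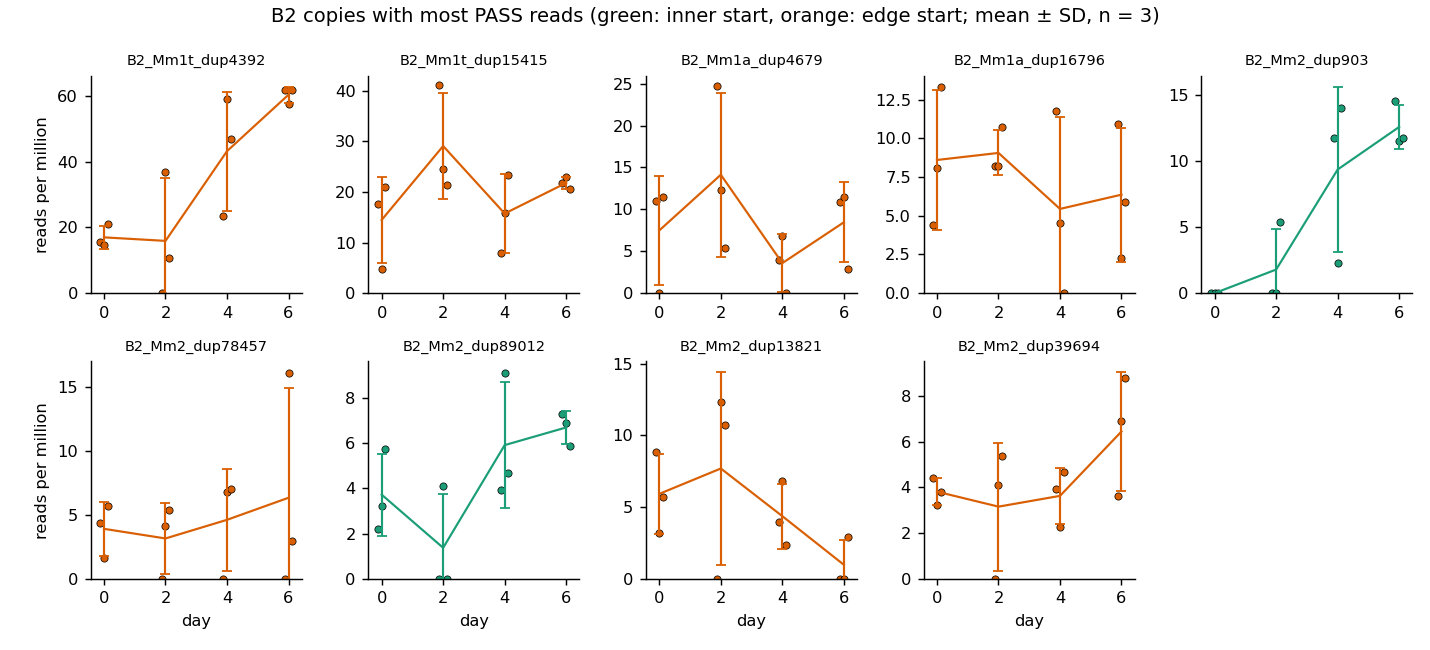
Level in RPM (y axis, own scale in each panel) of 9 of the 10 leading B2 copies against day (x axis), with points for libraries and bars for the mean and SD of 3. B2_Mm1t_dup4392 rises from 17.0 at D0 to 60.4 at D6, and B2_Mm2_dup903 is at 0 in all 3 D0 libraries and at 12.6 ± 1.70 at D6.

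Poly(A) tails of B2 reads were compared with those of nuclear transcripts in the same library. B2 reads had longer median tails, more tails under 30 nt and fewer tails of 30 to 90 nt. Of B2 alignments 38.3% had an accepted tail call, against 80.3% of those on nuclear transcripts. B2 copies end in an A-rich stretch of their own, and whether the tail calls take in part of it was not tested. The B2 median was 103, 118 and 122 nt in the D0 replicates, 98.8, 118 and 92.8 at D2, 116, 103 and 119 at D4, and 128, 131 and 118 at D6. It was above that of transcripts in 11 of 12 libraries, by 14.3 ± 10.6 nt (SD, n = 12, exact sign-flip p = 0.00244, two-sided, 0.00439 after Benjamini-Hochberg adjustment over 18 tests). The exception was D2 replicate 3, by -5.68 nt.

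Tails under 30 nt made up 7.16 ± 1.87% of B2 reads and 2.96 ± 0.62% of transcript reads, and the B2 share was higher in 12 of 12 libraries (exact sign-flip p = 0.000488, adjusted 0.0022). Tails of 30 to 90 nt made up 33.0 ± 4.57% and 40.3 ± 1.92%, lower for B2 in 11 of 12 libraries (exact sign-flip p = 0.000977, adjusted 0.0022).

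Short tails were more frequent among inner starts. These had 9.91 ± 2.92% of tails under 30 nt against 4.33 ± 2.54% of edge starts, higher in 11 of 12 libraries (exact sign-flip p = 0.000977, adjusted 0.0022). The median tails of the 2 kinds were 111 ± 17.7 and 114 ± 11.5 nt, with a difference of -2.60 ± 18.8 nt (exact sign-flip p = 0.64). The share of 30 to 90 nt tails among edge starts minus that of transcripts was -6.31 points, and negative in 12 of 12 libraries (exact sign-flip p = 0.000488).

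**Figure D5:**
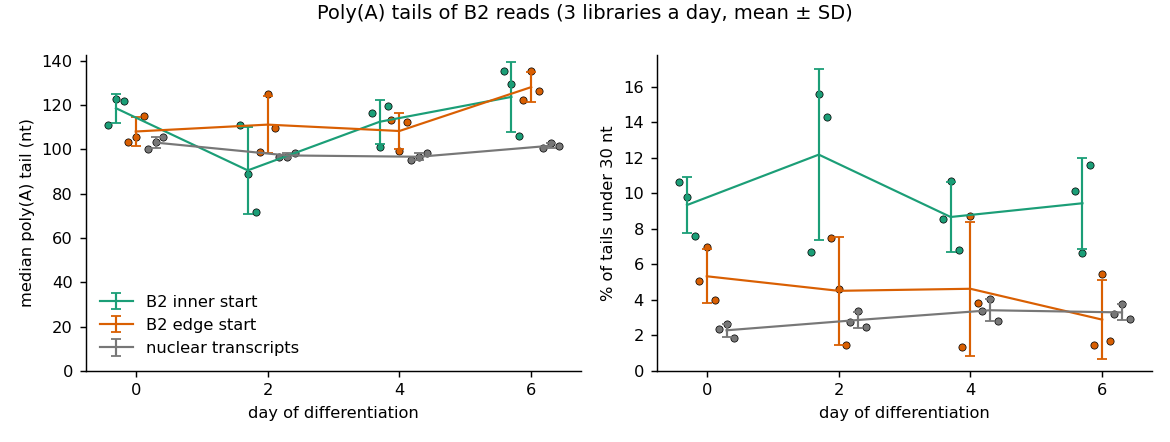
Median poly(A) tail in nt (left) and percent of tails under 30 nt (right) against day for B2 inner starts, B2 edge starts and nuclear transcripts, with points for libraries and bars for the mean and SD of 3. Over the 12 libraries the share under 30 nt is 9.91 ± 2.92% for inner starts, 4.33 ± 2.54% for edge starts and 2.96 ± 0.62% for transcripts.

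Subfamilies differed in tail length. The median was 125 ± 10.8 nt for B2_Mm2, 108 ± 14.0 for B2_Mm1a and 100.1 ± 19.2 for B2_Mm1t (SD, n = 12), shorter than B2_Mm2 in 10 and 11 of 12 libraries (exact sign-flip p = 0.00342 and 0.000977, adjusted 0.00513 and 0.0022). Among the copies with at least 10 reads that are reported here, medians ran from 73.7 nt in B2_Mm1t_dup1354 to 159.6 nt in B2_Mm2_dup89012, and the copy past Lyrm2 had 116.

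No change of B2 tails over time passed a test, and 3 against 3 libraries could not reach 0.05. Some groups did not overlap. Inner starts had median tails of 118.6 ± 6.55 nt at D0 and 90.5 ± 19.5 at D2, and their share of 30 to 90 nt tails was 10.6 points higher at D2 (exact permutation p = 0.1 for both). In B2_Mm1t the shares under 30 nt and of 30 to 90 nt were 5.25 and 15.3 points higher at D2, and for edge starts the latter was 3.29 points higher at D4 (exact permutation p = 0.1 for each). At D0 7.95 ± 1.499% of B2 tails were under 30 nt, and at D6 5.43 ± 0.97%, without overlap (exact permutation p = 0.1), and edge starts had median tails of 108 ± 6.35 nt at D0 and 128 ± 6.81 at D6, also without overlap (exact permutation p = 0.1). With only copies of at least 3 reads in a library, each counted once, the share under 30 nt differed by 2.21 points at D6, in the opposite direction (exact permutation p = 0.4). The median over B2 minus that of transcripts was 11.3 ± 7.08 nt at D0 and 24.0 ± 6.29 at D6 (exact permutation p = 0.1). This difference of 12.7 nt was 5.50 nt with 1 line per read name and 5.59 nt with a mapping quality of at least 10 (exact permutation p = 0.3 and 0.4).

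Genes of the RNA polymerase III machinery were read from a list of 30, of which 29 were tested by their most read transcript. At D6 2 rose and 6 fell, where 29.6% of all features were called, 14.9% higher and 14.8% lower. The list's share of calls on that day was thus not above that of all features. Its median log2 fold change was -0.22 against 0.00 over all features. Polr3g, the subunit isoform of undifferentiated cells, fell by 2.65 on the log2 scale (limma-voom adjusted p = 0.000202), from 32.4 ± 6.63 to 5.68 ± 2.75 RPM. Polr1c and Polr1d, shared with RNA polymerase I, fell by 1.00 and 1.05, and Polr2e and Polr2h, shared by all 3 polymerases, by 1.24 and 1.00 (limma-voom adjusted p = 3.48e-06, 5.55e-05, 6.46e-08 and 0.000344). Gtf3c3, a subunit of TFIIIC, which binds the B box, fell by 1.30 (limma-voom adjusted p = 0.00263). Brf1, a subunit of TFIIIB, rose by 1.67 ± 0.49 and Polr3k, a small subunit, by 0.88 ± 0.22 (limma-voom adjusted p = 0.0071 and 0.00144). At D2 0 rose and 3 fell, of which the call for Polr2h was lost under both other scalings and with a replicate block, and at D4 2 rose and 6 fell, where 7.18% and 20.2% of all features were called. Scaling by the library total gave 1 higher and 2 lower at D2, 3 and 6 at D4, and 4 and 6 at D6. The share of all features called under that scaling is not set beside these counts. No called member turned its direction under another scaling. Polr3a, the largest subunit, stood at -1.52 ± 0.74 at D6 (adjusted p = 0.119, limma-voom), and Polr3gl, the isoform of differentiated cells, at -0.22 ± 0.69 (adjusted p = 0.848).

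Of 13 genes that act in silencing of SINEs and other repeats, 1 rose and 2 fell at D6, 1 rose and 1 fell at D4, and limma-voom called 0 at D2, with 0 at an unadjusted p under 0.05. Of all features 29.6%, 20.2% and 7.18% were called on these days, so the list's share was not above that of all features. Cbx1, for a heterochromatin protein, rose at D6 by 0.73 ± 0.18, and Trim28 and Hells, a corepressor and a chromatin remodeller, fell by 0.79 and 1.68 (limma-voom adjusted p = 0.0013, 7.21e-06 and 7.78e-07). Adnp and Chd4, parts of a complex known to bind B2 copies, stood at 0.21 ± 0.36 and 0.05 ± 0.20 (limma-voom adjusted p = 0.70 and 0.886).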

How the data were processed

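The authors sequenced native poly(A) RNA of 12 libraries, used Guppy for base calls, and minimap2 2.20 (per the submitters' processing notes) placed reads on mm10 contigs, made of GENCODE vM17 transcripts and single repeat copies. Tails came from Nanopolish and barcodes from Deeplexicon. The deposited table holds 1 line per alignment, with the tail length in nt, a mapping quality score and a barcode confidence fraction. A second deposited file holds the authors' own comparisons and was not used.

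Of 6306434 lines, 69 were malformed and 4.59% had no barcode, including 196 B2 PASS lines. Reads were tallied per library, with repeat copies summed by name or kept apart. Features with at least 30 reads were fitted with limma-voom (limma 3.58.1, R 4.3.3; trimmed mean scaling, day as factor, all 12 libraries in 1 fit, called at an adjusted p of at most 0.05), which was tested on simulated data. Single values per library were compared by exact permutation or sign-flip tests in Python 3.11.15. The authors' DESeq2 was not run, since no deposited column holds counts and the tallies are made here. Copies were placed on GENCODE vM21 genes. Named copies were the 10 with most PASS reads and the copies called at D6, of which 1 is not reported here. Alternatives were other scalings, read filters, tail limits, a replicate block and leaving out each library. The members and lists were chosen with earlier results of these data known.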

Additional observations from a re-analysis of the deposited data

How the results depend on the processing

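Log2 fold changes are given against D0. With a mapping quality of at least 10, B2_Mm1a at D2 was -0.39 and no longer passed, nor did B2_Mm1t at D4 (-0.061) or inner starts at D2 (-0.33). B2_Mm1t turned to 0.064 at D2 and 0.40 at D6, and B2_Mm1a edge starts to -0.0051 at D2. The same minimum turned the log2 B2 level at D6 to 0.24, the log2 ratio of B2_Mm1t to B2_Mm2 to 0.33, 0.21 and 0.29 at D2, D4 and D6, the ratio of B2 to B1 at D2 to 0.22, the share of 30 to 90 nt tails at D6 to 0.31 points and the tail excess over transcripts at D4 to -3.34 nt. With every quality tag counted, B2_Mm1t passed at D2 (-0.70) and D6 (-0.47), B2_Mm2 at D6 (0.28), and edge starts turned to -0.11 at D2 and 0.11 at D4. In libraries thinned to the smallest, B2_Mm1a at D2 (-0.66) and edge starts at D6 (0.20) no longer passed, B2_Mm2 turned to 0.10 at D4 and edge starts to -0.077 at D2. Scaling by library total moved the median of all features to 0.14, 0.09 and 0.25 at D2, D4 and D6 and let B2_Mm2 pass at D6 (0.35), and leaving out the copy with most reads let B2_Mm1t pass at D6 (-0.62) and turned its edge starts at D4 to -0.24. Without a filter B2_Mm1t passed at D2 (-0.57). Edge starts at D2 turned to -0.058 with a minimum of 10 reads, -0.098 with none and -0.036 with 1 line per read name. A barcode confidence of at least 0.75 turned the B2 level at D6 to 0.0032 and the ratio of B2_Mm1t to B2_Mm2 at D2 to 0.011. The cause of these shifts was not tested.

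Of 5 copies tested, 0, 1 and 1 were called at D2, D4 and D6, against 7.23%, 20.3% and 29.7% of all contigs. With a minimum of 10 reads the number was 3 at D4 and 4 at D6, of 22 copies. It was 1, 4 and 6 with every tag, and 0 at D4 with a mapping quality of at least 10. With no filter it was 1131, 6 and 13 of 2299 copies, most of which hold a single read. The share of all contigs called was not computed for these alternatives, so their counts are not read as a result about B2 copies.

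Day differences of tail shares that turned were, for tails under 30 nt, -0.65 points at D2 with a limit of 25 nt, and -1.43, 0.60 and 2.21 at D2, D4 and D6 with copies of at least 3 reads in the library, each counted once. For tails of 30 to 90 nt they were -6.46 at D4 with those copies and 0.37 at D6 with 1 line per read name.

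Leaving out 1 library at a time gave -0.79 to -0.59 for B2_Mm1a at D2, -0.65 to -0.43 for B2_Mm1t at D4, -0.019 to 0.22 for B2_Mm2 at D6 and -0.094 to 0.15 for edge starts at D2. It gave 0 to 1 copies called at D4, -0.63 to 1.29 for B2_Mm1a_dup4679 at D6, -3.57 to 0.22 points for tails of 30 to 90 nt at D6, -7.31 to 3.11 nt for the median tail at D4, -0.0062 to 1.41 points for tails under 30 nt at D2, -0.19 to 0.00088 for B2 to B1 at D2 and -13.0 to 0.69 nt for the tail excess at D2. The B2_Mm1a call was lost without D2 replicate 2, the B2_Mm1t call without D0 replicate 3 and the copy at D4 without D4 replicate 2. The sign turned without D0 replicate 2 for B2_Mm2, B2_Mm1a_dup4679 and edge starts, without D2 replicate 2 for edge starts and B2 to B1, without D2 replicate 3 for the tail excess, without D0 replicate 1 for tails of 30 to 90 nt, without D0 replicate 3 for tails under 30 nt and for the median tail (2.01 nt), and without D4 replicate 2 for the median tail. The other 295 values with a library left out kept their direction and, where tested across features, their call, as did 478 values under the remaining alternatives.

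A fit with the replicate number as a block gave -0.69, -1.25 and -1.03 for B2_Mm1a and changed no call of subfamilies, start classes or copies. Among the genes of both lists it ended 1 call, that of Polr2h at D2 (-0.80, adjusted p = 0.0522). Of 18 pairs of libraries that share a number, 5 had deviations correlated above 0.1 (range -0.294 to 0.312), so the numbers were not treated as pairs. Single copies are limited by depth, with 79.6% of them seen once.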
